A study of Mus musculus with 2 samples.

Results

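Rab proteins are small GTPases that sit on the membranes of transport vesicles and organelles and decide where these form, move and fuse. A Rab switches between a GDP-bound state held in the cytosol and a GTP-bound state on the membrane, where it recruits effectors such as motors, tethers and fusion factors. B cells depend on them for the uptake of antigen with its receptor, for the route of antigen to the compartments where it is loaded on class II molecules, and, once activated, for the growing secretory traffic of an antibody-producing cell. Rabs of the secretory route act from the endoplasmic reticulum over the Golgi to the plasma membrane, and Rabs of the endocytic route act on early, recycling and late endosomes.

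The members were the 59 protein-coding genes of the GENCODE mouse annotation whose symbol is Rab, a number and at most a paralogue letter, among 21951 protein-coding genes. Genes for regulators and binding partners of Rabs (Rabgap, Rabep, Rab3gap, Rab3ip and Rab11fip genes) were not members. By their textbook roles, 21 members were placed in a secretory class and 20 in an endocytic class, and the other 18 were placed in neither. This choice is not the only possible one: Rab33a was placed in neither and its paralogue Rab33b in the secretory class. Moving members of the neither class into the other classes was not tried, so the shares of the classes depend on this choice. All 59 have an annotated 3′UTR, as do 21028 protein-coding genes in all.

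Binding of Tia1, an RNA-binding protein of stress granules that favours U-rich 3′UTRs, was mapped by individual-nucleotide crosslinking and immunoprecipitation (iCLIP). In this assay the nucleotide just before the start of each sequenced read marks a UV-induced crosslink between protein and RNA. The cells were primary splenic B cells of C57BL/6 mice cultured with LPS (10 µg/ml) for 48 h, and cytoplasmic extracts were used. Both samples belong to 1 group of 2 replicates, and there was no control sample here, so conditions could not be compared and background crosslinking was not measured. Titles and methods speak of Tia1, and the study lists a Tia1 antibody for iCLIP and checked its precipitation by western blot, but the antibody in the labels is one against the relative Tial1. The labels were not reconciled with the methods here, and the protein is called Tia1. The labels do not say how many animals gave the cells.

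All values are counts of unique cDNAs at sites with a low false discovery rate (low-FDR sites, FDR below 0.05), called by the authors in each replicate and in the sum of both (pooled). Replicate 1 held 639108 cDNAs at 342732 sites, replicate 2 held 165081 at 93512, and the pooled list held 867271 at 422150. Because the depths differ, levels between replicates are given per 100000 low-FDR cDNAs of the replicate with GRCm38 positions (632247 and 163577). The lists hold only called sites, so not called means that the 3′UTR of a gene is without a low-FDR site, which is not an absence of crosslinks. mRNA levels were not measured here, so fewer transcripts and less binding per transcript cannot be told apart. Of 6 B cell marker mRNAs, 5 were called in both replicates (2522 and 551 cDNAs for the list), Cd79a being the exception with 8 and 0, and plasma cell markers gave 931 and 233. Of 6 T cell markers none was called in both (4 and 0 cDNAs, all on Cd3e, with Cd3d, Cd3g, Cd4, Cd8a and Cd5 without a site), 4 myeloid markers gave 29 and 6 with Csf1r and Itgax without a site, and 3 erythroid markers gave 25 and 3. Confidence intervals are exact 95% intervals and cover counting error only.

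The 29-nucleotide windows around the strongest pooled 3′UTR sites of 11 members show what the crosslinked RNA looks like. The first 8 belong to the members with most 3′UTR cDNAs, of which Rab18 is described below without its sequence, and Rab8a, Rab11a and Rab11b were added after their values were seen, to set paralogues side by side. Runs of at least 4 T are in capitals, the crosslinked base is the middle one, and all are in transcript direction from GRCm38.
Rab8b, chr9:66846825-66846853, minus strand: tatgcagtacaTTTTTTctgcgtttcacc
Rab14, chr2:35181636-35181664, minus strand: TTTTTTTTTaaTTTTTacactaTTTTatc
Rab5c, chr11:100715326-100715354, minus strand: aacTTTTTctgtaTTTTgtattgtatgtt
Rab21, chr10:115290452-115290480, minus strand: tcatttatattcTTTTaaatcagatcttt
Rab7, chr6:88000023-88000051, minus strand: attatctgaTTTTTTTTTTaacggtcttg
Rab6a, chr7:100639496-100639524, plus strand: gtcagtgtctttattatttataTTTTTTa
Rab1a, chr11:20226000-20226028, plus strand: cgccacgcctggcTTTTTTcccctttctt
Rab10, chr12:3249678-3249706, minus strand: tctaaacagataTTTTTgtttctcatctt
Rab8a, chr8:72180805-72180833, plus strand: tatctaagatgaTTTTTTTaTTTTTccag
Rab11a, chr9:64716743-64716771, minus strand: tcactttctgtgTTTTattacttccttac
Rab11b, chr17:33746650-33746678, minus strand: ctctcgaactcttattctccctgtagccc

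The crosslinked base was T in all 11 windows, and 10 hold TTTT, Rab11b being the one without. For Rab11b the choice was not unique, since 3 sites shared its highest count of 6 pooled cDNAs, and for Rab6a 2 sites shared 8. The windows of Rab8b, Rab21, Rab7, Rab6a, Rab1a and Rab11b lie outside the leading pooled cluster of their gene. In Rab5c and Rab11b the middle base had no cDNA of replicate 2 (22 and 6 cDNAs in replicate 1). TTTTT is in 8 of the 11 windows. Over all 29-nucleotide windows of the 3′UTRs of protein-coding genes, on the transcript strand, 19.1% hold TTTT and 7.04% hold TTTTT. These windows were chosen by their crosslinks, so the counts describe them and test nothing.

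A larger share of Rab mRNAs than of all protein-coding mRNAs carried Tia1 sites in the 3′UTR, and a handful of them held most of the cDNAs. In both replicates 22 of the 59 (37.3%) had a 3′UTR site, called bound below, while 22.2% of all protein-coding genes with a 3′UTR were bound. With at least 10 cDNAs in each replicate the counts were 14 of 59 (23.7%) against a background of 11.9%. Rab 3′UTRs were longer than most, with a median of 1949 nt against 991 nt. Among 3′UTRs of at least 1 kb, 20 of 41 Rabs (48.8%) were bound against 29.7% of all genes. No test across genes was made of these shares.

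Replicate 1 called 29 members and replicate 2 called 22, all of them also called in replicate 1. Of all 21028 protein-coding genes with a 3′UTR, replicate 1 called 6773 and replicate 2 called 4826. Among these genes 2108 were called in replicate 1 only and 161 in replicate 2 only, and 13669 had no pooled 3′UTR site. Rab5a, Rab5b, Rab12, Rab31, Rab24, Rab23 and Rab20 were called in replicate 1 only, with 2 to 18 cDNAs each. Rab27a (4 cDNAs), Rab29 (3) and Rab37 (3) were called only in the pooled list. No low-FDR 3′UTR site was found for 27 members: Rab3a, Rab3b, Rab3c, Rab3d, Rab4a, Rab6b, Rab7b, Rab9, Rab9b, Rab13, Rab15, Rab17, Rab19, Rab25, Rab26, Rab27b, Rab32, Rab33a, Rab34, Rab36, Rab38, Rab39, Rab39b, Rab40b, Rab40c, Rab42 and Rab44. The 4 Rab3 paralogues, known from regulated exocytosis in neurons and endocrine cells, were all in this list.

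Member 3′UTRs totalled 3236 cDNAs in replicate 1, 684 in replicate 2 and 4156 pooled. This was 0.645% (0.623 to 0.667%) of all 3′UTR cDNAs of replicate 1 and 0.512% (0.475 to 0.552%) of those of replicate 2, a mean of 0.578% ± 0.0936 (SD, n = 2). The intervals of the replicates do not overlap, so the share was lower in replicate 2 by more than counting error. The 3 leading members, Rab8b, Rab14 and Rab5c, took 39.7% (replicate 1) and 43.9% (replicate 2) of the Rab cDNAs, whereas the 10 leading members took 80.8% and 84.1%.

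**Figure D1:**
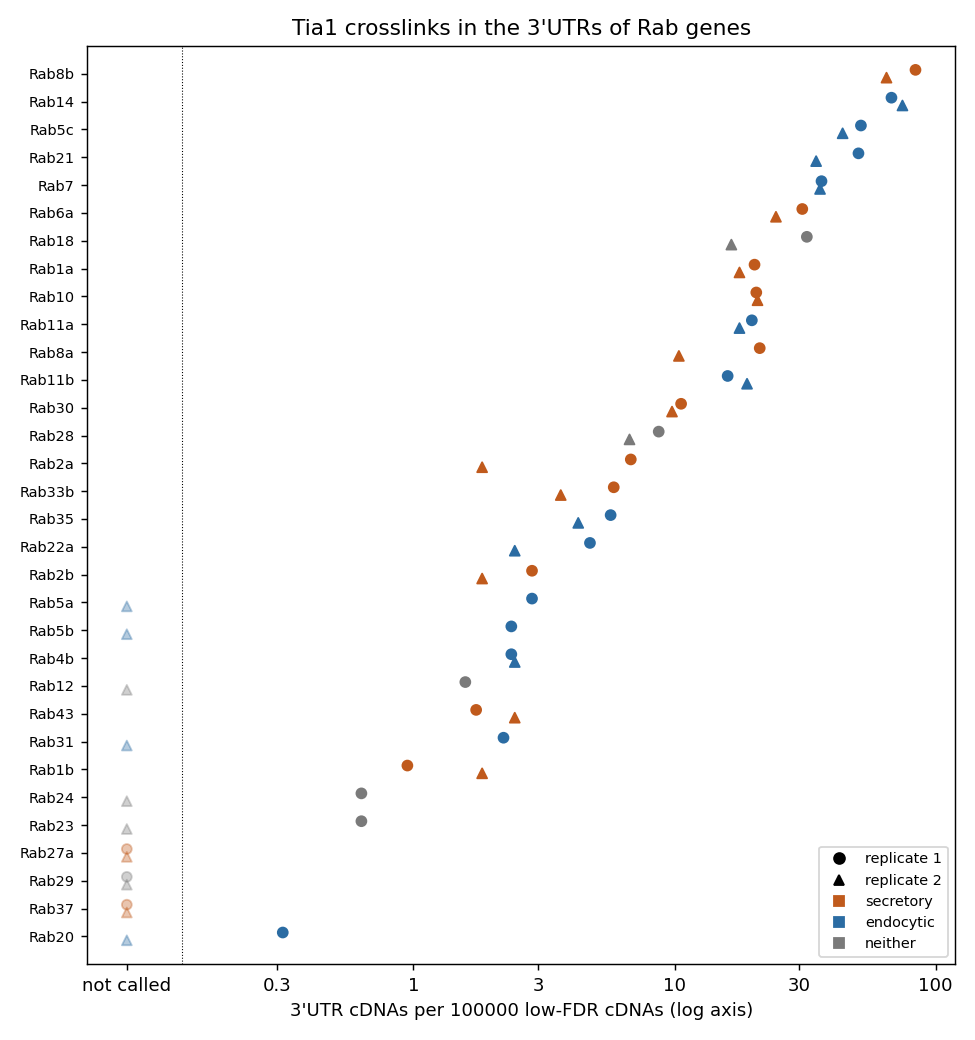
3′UTR cDNAs per 100000 low-FDR cDNAs (log axis) of the 32 members with a pooled 3′UTR site, in order of their pooled cDNAs. Circles are replicate 1, triangles replicate 2, colours are the classes, and faint symbols left of the dotted line were not called. Rab8b and Rab14 lead in both replicates, and 7 members have a circle but no triangle among the called values.

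Rab8b, a Rab of vesicles moving from the Golgi to the plasma membrane, had the most cDNAs of all members in replicate 1. Its 3′UTR (4055 nt, chr9:66843664-66847718, minus strand) held 529 cDNAs at 302 sites in replicate 1 and 106 at 67 sites in replicate 2. Per 100000 this was 74.2 ± 13.3 (SD, n = 2). By pooled cDNAs it ranked 151 among the 4665 bound genes, but per kb of 3′UTR only 845. The sites lay along the whole 3′UTR in 36 clusters (sites at most 15 nt apart). The strongest cluster, 3965 to 4021 nt after the stop codon and so close to the annotated end, held 81 and 35 cDNAs, which was 15.3% of replicate 1 and 33.0% of replicate 2. The next by pooled count, at 876 to 919 nt, held 49 and 19 and contains the window printed for Rab8b. It led the cluster at 2181 to 2251 nt by 70 to 69 pooled cDNAs only, and that cluster was ahead in replicate 1 with 54.

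Rab14 works on early and recycling endosomes and at the trans-Golgi. It held 428 cDNAs in replicate 1 and 122 in replicate 2 (71.1 ± 4.87 per 100000, SD, n = 2), so that it was second to Rab8b in replicate 1 and first in replicate 2. Rab8b and Rab14 did not differ beyond the spread of their replicates. In contrast to Rab8b, the cDNAs of Rab14 were gathered in 1 place: the cluster from 563 to 734 nt after the stop codon (chr2:35181536-35181707, minus strand) held 288 and 99, or 67.3% and 81.1%. The 29 nt printed for Rab14, with 3 runs of T, held 154 and 55 cDNAs by themselves, or 36.0% and 45.1% of the gene.

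Rab5c, a Rab of early endosome fusion, had the densest 3′UTR. On 1038 nt (chr11:100715009-100716046, minus strand) it held 327 cDNAs in replicate 1 and 72 in replicate 2 (47.9 ± 5.45 per 100000, SD, n = 2). Per kb of 3′UTR its pooled count was 388, the highest of all members, against a median of 46.8 over the 22 bound Rabs and of 46.4 over all bound genes. Both replicates showed the same 2 clusters, from 122 to 228 nt (132 and 36 cDNAs) and from 667 to 761 nt (165 and 33). Which of them led differed between the replicates.

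Rab21, which acts in early endosomes and integrin traffic, held 320 and 57 cDNAs (42.7 ± 11.1 per 100000, SD, n = 2) in 22 clusters over 3998 nt. Rab5c and Rab21 did not differ beyond the spread of their replicates per 100000, but per kb Rab21 reached 100.05 pooled cDNAs against 388. Rab7, the Rab of late endosomes and of fusion with lysosomes, held 231 and 59 cDNAs (36.3 ± 0.331 per 100000, SD, n = 2) on 1300 nt, or 228 pooled cDNAs per kb. Its leading cluster at 953 to 1012 nt held 39.4% and 39.0% of its cDNAs, nearly the same share in both replicates.

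Rab6a, of traffic within and out of the Golgi, held 195 and 40 cDNAs (27.6 ± 4.52 per 100000, SD, n = 2). Rab18, a Rab of lipid droplets and the endoplasmic reticulum, held 203 and 27 (24.3 ± 11.0), and was the only member of the neither class among the 10 leading members. Its annotated 3′UTR is one of the longest, and per kb it ranked 2435 among the 4665 bound genes. Rab1a, needed between the endoplasmic reticulum and the Golgi, held 128 and 29 (19.0 ± 1.78 per 100000). Rab10, of basolateral and GLUT4 vesicle transport, held 130 and 34 (20.7 ± 0.158), and Rab11a, of the recycling endosome, held 125 and 29 (18.7 ± 1.44). Taken in the order of pooled cDNAs, the replicate values of neighbours overlapped per 100000 from Rab6a over Rab18 to Rab1a. Those of Rab10 (20.6 and 20.8) lay just above both values of Rab1a and of Rab11a. Gaps between the replicate values of neighbours stood also between Rab14 and Rab5c and between Rab7 and Rab6a.

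Below the 10 leading members, Rab8a held 134 and 17 cDNAs, Rab11b 101 and 31, and Rab30, a Golgi Rab, 67 and 16. Rab28 (55 and 11), Rab2a (43 and 3), Rab33b (37 and 6), Rab35 (36 and 7) and Rab22a (30 and 4) followed. Rab2b, Rab4b, Rab43 and Rab1b were bound with 6 to 18 cDNAs in replicate 1 and 3 or 4 in replicate 2. All sites of Rab4b and Rab43 lie in exons that also belong to the annotated genes Gm21983 and Gm45140 on the same strand, so their cDNAs cannot be assigned to the Rab with certainty, and without them 20 members were bound.

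The comparison of traffic routes gave no single order of the secretory and endocytic Rabs. Of the secretory Rabs 11 of 21 (52.4%) were bound, of the endocytic Rabs 9 of 20 (45.0%), and of the neither class 2 of 18 (11.1%, Rab18 and Rab28), with 22.2% of all genes as background. In replicate 1 alone the order turned, with 11 of 21 secretory and 13 of 20 endocytic members called, since Rab5a, Rab5b, Rab31 and Rab20 had 3′UTR sites in replicate 1 and none in replicate 2. The difference between the classes in this count was not larger than the spread between replicates (7.38 percentage points against an SD of 14.1).

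In cDNAs, the endocytic Rabs summed to 1662 and 385 and the secretory Rabs to 1298 and 261, although the endocytic 3′UTRs were shorter (median 1762.5 against 2359 nt). Per kb of summed 3′UTR, the endocytic class held 39.4 cDNAs and the secretory class 20.5 in replicate 1, and 9.12 and 4.12 in replicate 2. The ratio of endocytic to secretory was 1.92 and 2.21. It fell to 1.10 for the pooled list when both classes were limited to their core members, which leave out Rab14 and Rab8b among others. Median cDNAs per gene were 15 for endocytic and 6 for secretory members in replicate 1, but 0 and 3 in replicate 2.

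Among the bound members alone, the median per kb was 80.0 for the 9 endocytic and 33.7 for the 11 secretory genes in replicate 1, and 14.3 and 2.56 in replicate 2. The values of the classes overlap widely, from 4.82 in Rab22a to 315 in Rab5c for endocytic members and from 2.55 in Rab43 to 130 in Rab8b for secretory ones in replicate 1. Genes are not replicates of a class, so no p-value is given.

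**Figure D2:**
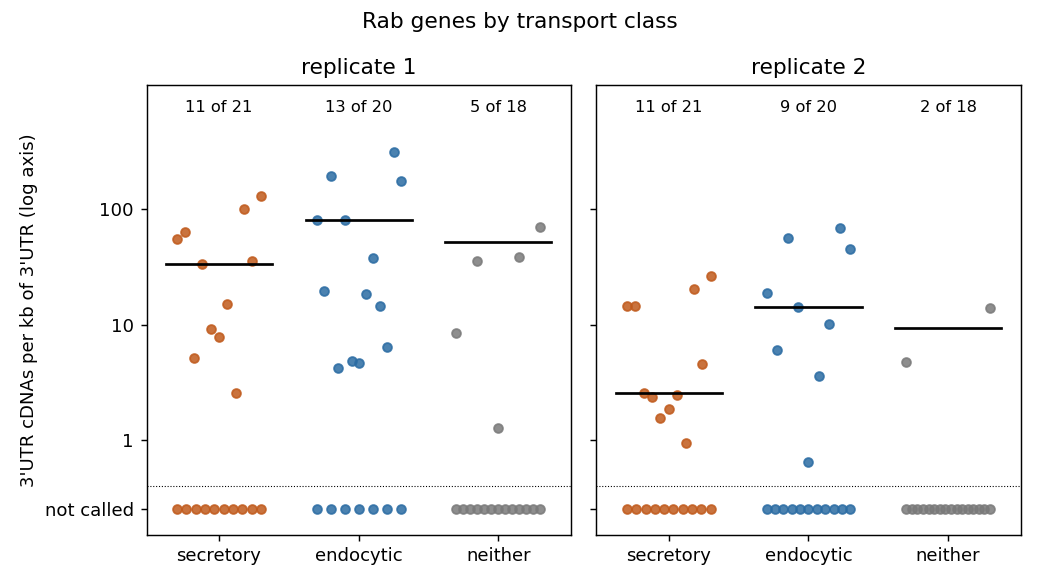
3′UTR cDNAs per kb of 3′UTR (log axis) for each member by class, replicate 1 on the left and replicate 2 on the right. Black lines are medians over the members bound in both replicates, the numbers on top count the members called in that replicate, and points under the dotted line were not called. The endocytic and secretory points overlap in both replicates.

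Paralogues of the same Rab subfamily differed in their Tia1 cDNAs. Rab8b exceeded Rab8a, which serves the same route, 3.95-fold in replicate 1 (529 against 134 cDNAs, interval 3.26 to 4.81) and 6.24-fold in replicate 2 (106 against 17, 3.72 to 11.1). Their 3′UTRs are of similar length (4055 and 3767 nt), and per kb the ratio was 3.67 and 5.79. Rab8a also differed in layout: all its sites fell within 1120 nt of the stop codon, and 62 of 134 and 13 of 17 cDNAs lay in the 29 nt printed above, whose runs of T are split by a single A.

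Rab5c held 327 cDNAs in replicate 1, Rab5a 18 and Rab5b 15, which makes Rab5c 18.2-fold (11.3 to 31) and 21.8-fold (13 to 39.4) higher. In replicate 2 Rab5c held 72, and neither Rab5a nor Rab5b was called in the 3′UTR, while 3 cDNAs of replicate 2 lay in the coding sequence of Rab5a. All 3 serve early endosome fusion. Rab1a exceeded Rab1b 21.3-fold in replicate 1 (128 against 6, interval 9.54 to 59.2) and 9.67-fold in replicate 2 (29 against 3, 3.00 to 49.6). The 3′UTR of Rab1a is longer (2011 against 1173 nt), and per kb its ratio to Rab1b was 12.4 and 5.64.

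Rab11a and Rab11b, both of recycling endosomes, were alike in their counts but not in their density. Rab11a held 125 and 29 cDNAs and Rab11b 101 and 31, so the ratio was 1.24 (0.945 to 1.63) and 0.935 (0.544 to 1.60), and both intervals include 1. Since the annotated 3′UTR of Rab11b is longer (5146 against 1550 nt), Rab11a was higher per kb by 4.11 and 3.11. The counts of Rab2a and Rab2b, Rabs between the endoplasmic reticulum and the Golgi, were 43 and 18 in replicate 1 (2.39-fold, 1.35 to 4.40), but 3 and 3 in replicate 2. Rab22a held 30 and 4 cDNAs and its relative Rab31 14 in replicate 1 and none called in replicate 2. The 3′UTR of Rab22a is longer (6224 against 3001 nt), and per kb both were close in replicate 1 (4.82 and 4.67). Rab4b, Rab6a, Rab7 and Rab27a had sites in a list, while Rab4a, Rab6b, Rab7b and Rab27b had none.

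**Figure D3:**
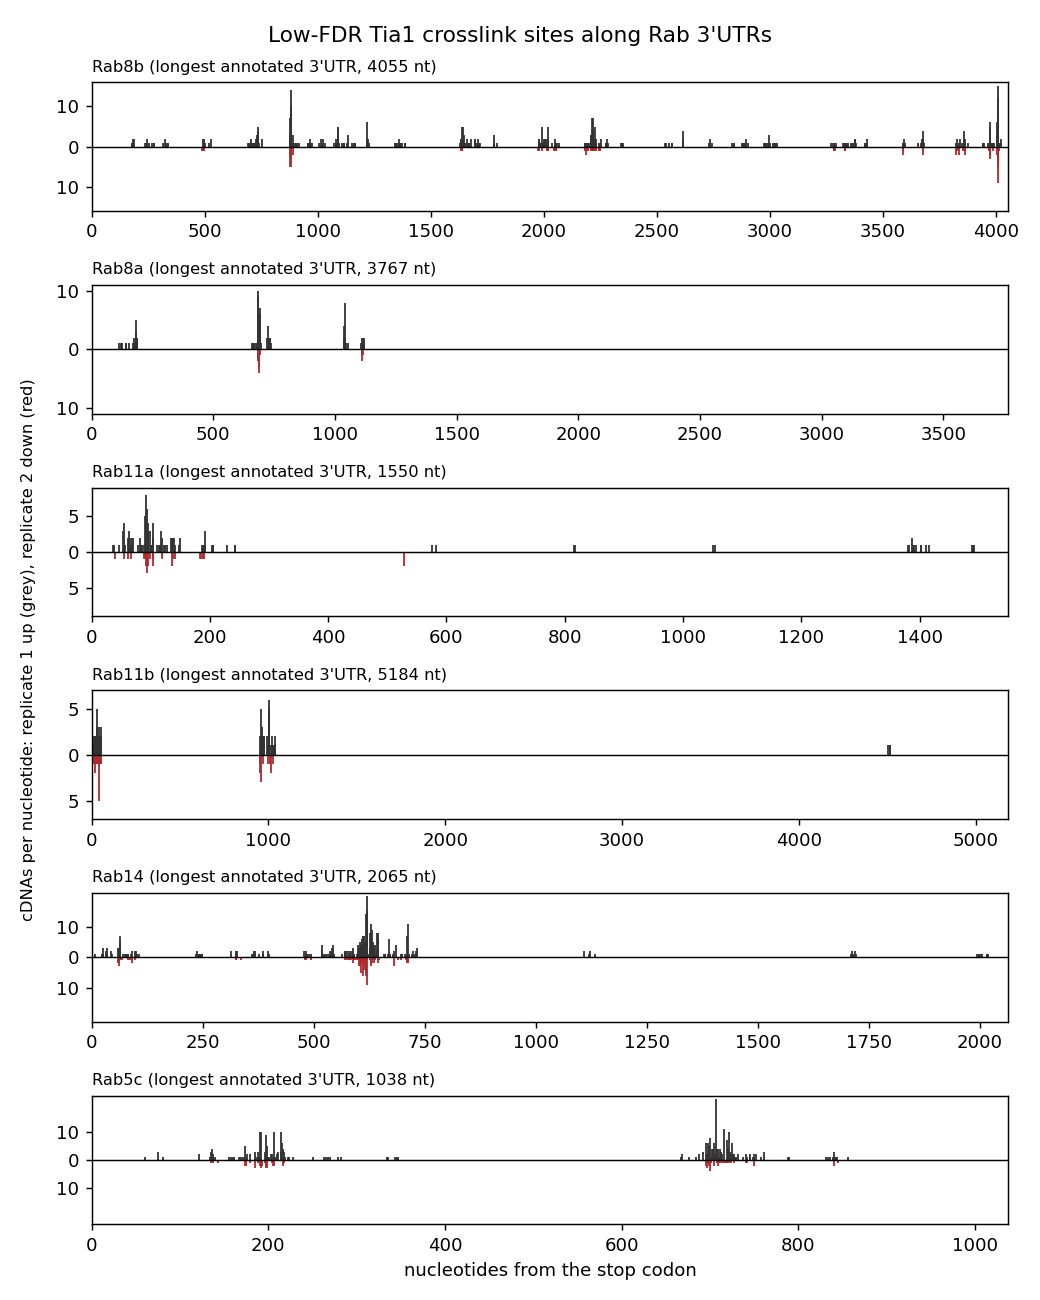
Low-FDR sites along the longest annotated 3′UTR of 6 members, as cDNAs per nucleotide against the distance from the stop codon in nucleotides (replicate 1 upwards in grey, replicate 2 downwards in red). Rab8b has sites along its 4055 nt, Rab8a and Rab11b leave most of the distal 3′UTR without sites, and Rab14, Rab11a and Rab5c carry most cDNAs in 1 or 2 clusters.

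Within the 3′UTR, a larger share of the Rab cDNAs lay near the stop codon than over genes at large. Each longest annotated 3′UTR was divided into 3 equal parts. Over the 26 members with at least 10 pooled cDNAs, the part next to the stop codon took 61.3% (replicate 1) and 64.0% (replicate 2) of the cDNAs. Over all 5205 genes treated in the same way the shares were 42.5% and 42.2%, a difference larger than that between the replicates, though not tested. Endocytic members reached 65.2% in the pooled list and secretory members 53.3%. For Rab18, Rab10, Rab8a and Rab22a the share was 100%, and for Rab11b 97.7%. Rab10 illustrates it, as its cluster from 57 to 174 nt of 2359 nt held 106 of 130 and 31 of 34 cDNAs. By gene the picture was less uniform: the part next to the stop codon held more cDNAs than the rest together in 13 of the 26 members, and the part next to the annotated end did so in 7. Over all 5205 genes, the part next to the stop codon did so in 1878 and the part next to the annotated end in 1595. The 7 members were Rab4b (100%), Rab33b (78.0%), Rab28 (72.7%), Rab43 (72.2%), Rab2a (65.4%), Rab2b (64%) and Rab5c (51.4%). Which 3′ ends are used in these cells was not analysed here, so a long stretch without sites may or may not be part of the transcript. In the 5 kb after the annotated end, 3 cDNAs were found, all after Rab11a.

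The leading cluster of the pooled list was also the leading one in replicate 1 for 19 of the 22 bound members, in replicate 2 for 21, and in both for 18. In 2 of these, Rab1a and Rab33b, the lead in replicate 2 was a tie (7 and 3 cDNAs), so that without ties the counts were 19, 19 and 16. Among the leading members Rab5c, Rab21 and Rab6a were led by different clusters in the replicates. In each of them the lead was narrow in 1 replicate. It was 37 to 36 cDNAs in Rab6a and 77 to 75 in Rab21 (replicate 1), and 36 to 33 in Rab5c (replicate 2). The pooled list contains the cDNAs of both replicates, so this is a count of like layouts and not an independent check.

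Nearly all Rab cDNAs lay in 3′UTRs. The share was 97.4% in replicate 1 and 97.2% in replicate 2 (97.3% ± 0.178, SD, n = 2) of the cDNAs in the exons and introns of the members, against 86.3% and 90.5% (88.4% ± 2.99) for all protein-coding genes with a 3′UTR. Coding sequences held 1.78% and 1.85% of the Rab cDNAs against 7.01% and 3.56%. The pooled counts in coding sequence were highest for Rab1a (14), Rab5c (11), Rab10 (10) and Rab30 (10). In introns Rab30 led with 16 pooled cDNAs (11 and 4), and this Golgi Rab had the longest annotated 3′UTR among the bound members (8596 nt).

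The RNA at the Rab sites was richer in U than the same 3′UTRs as a whole. In the 31 nt centred on each site, weighted by cDNAs, U made up 47.6% in replicate 1 and 50.9% in replicate 2, and 46.8% and 50.6% over all genes. The median difference to the gene's whole 3′UTR was 14.0 percentage points (26 members) and 17.7 (22 members), against 14.9 and 17.6 over all genes. Site windows were above their own 3′UTR in 25 of 26 members in replicate 1, Rab5b with 15 cDNAs being the exception, and in all 22 in replicate 2. Over all genes this held for 5235 of 5316 in replicate 1 and for 4385 of 4458 in replicate 2. The crosslinked base was U for 82.1% and 87.9% of the Rab cDNAs, and UUUUU lay in the 31 nt for 46.8% and 58.3%. UV crosslinks form readily at U with many proteins, and the share that this gives without Tia1 was not measured here. In these measures the Rab genes were close to all genes.

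**Figure D4:**
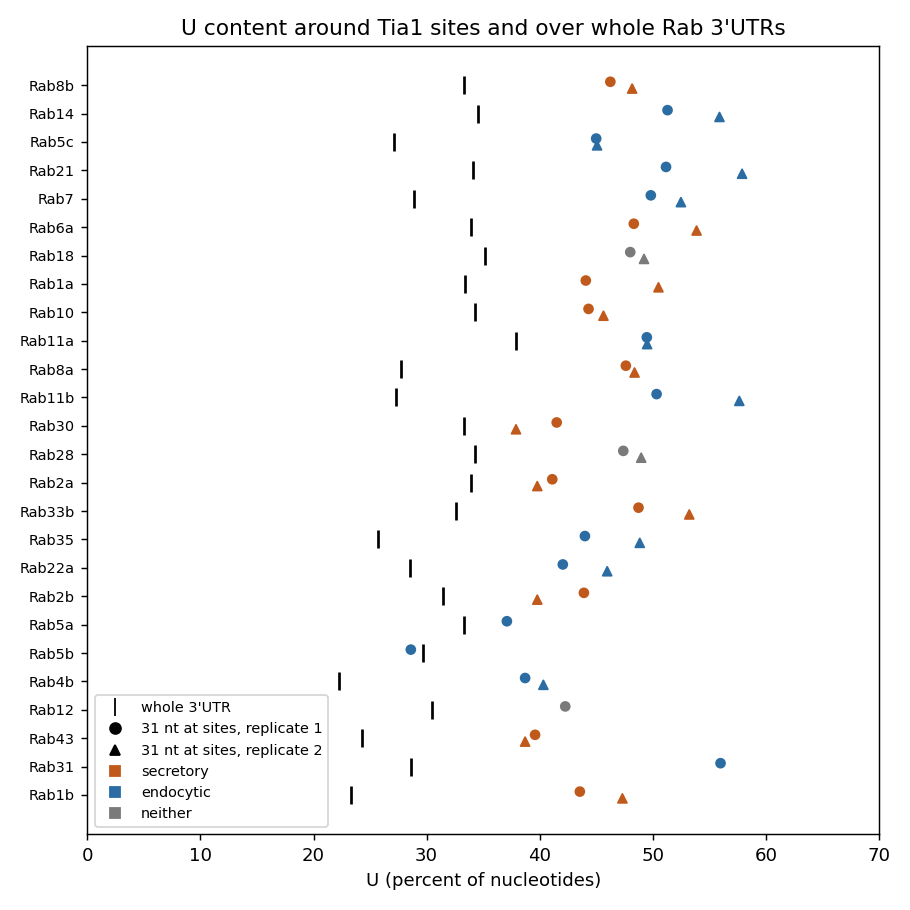
U content in percent for the 26 members with at least 10 pooled 3′UTR cDNAs, in the order of their cDNAs. Black bars are whole 3′UTRs, circles and triangles are the 31 nt at the sites of replicates 1 and 2 weighted by cDNAs, and colours are the classes. The symbols lie right of the bar in every gene but Rab5b.

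The 3′UTRs also differed between bound and other members before any site is looked at. The 22 bound Rabs had a median U content of 32.9% and 5.97 TTTTT per kb (overlapping matches in the transcript strand), and 21 of 22 held TTTTT. The 27 members with no site had 26.6% U and 2.84 TTTTT per kb, and 23 held TTTTT. Over all 3′UTRs the medians were 29.4% and 3.42 per kb, and 73.2% held TTTTT. The members with no site had shorter 3′UTRs (median 1041 against 2096.5 nt), so length and composition differ together here. Their parts were not tested, and neither was that of mRNA levels, which were not measured here.

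The share of 3′UTR cDNAs that came from replicate 2 varied between Rab genes. Over all genes replicate 2 gave 21% of the 3′UTR cDNAs of both replicates. For 6 members the interval lay below this, namely Rab8b at 16.7% (13.9 to 19.8%), Rab21 at 15.1%, Rab18 at 11.7%, Rab8a at 11.3%, Rab2a at 6.52% and Rab5a at 0% with an upper bound of 18.5%, and for none above. The same count was not made over all genes, so whether Rabs stand out in this is not known. The leading endocytic genes Rab14 (22.2%), Rab5c (18%) and Rab7 (20.3%) had intervals that include the overall share, and Rab21, as given, did not. Replicate 2 held 165081 low-FDR cDNAs and replicate 1 held 639108, and the part of depth in these differences was not tested.

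**Figure D5:**
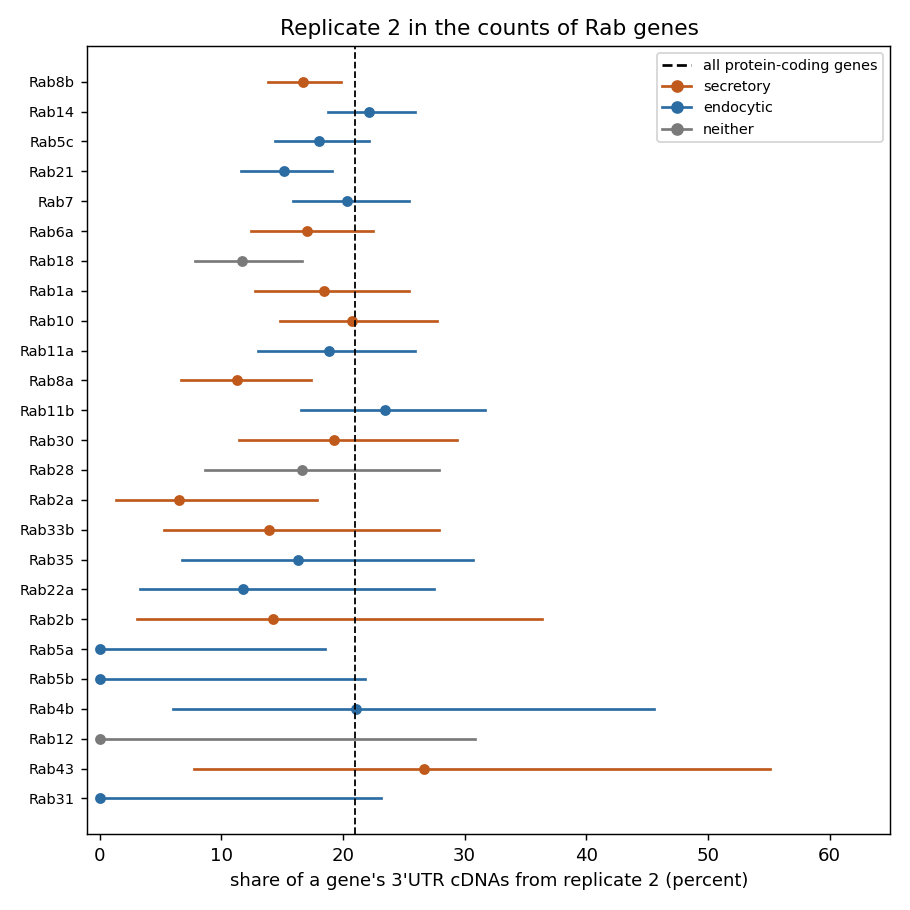
Share of each gene's 3′UTR cDNAs that came from replicate 2, in percent, with exact 95% intervals for counting error, for the 25 members with at least 10 cDNAs in both replicates together. The dashed line is the share over all protein-coding genes, 21%, and the intervals of Rab8b, Rab21, Rab18, Rab8a, Rab2a and Rab5a end left of it.

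Regulators and effectors of Rabs were bound as well. Of a list of 77 genes for exchange factors (DENN-domain and other proteins that load GTP), GTPase-activating TBC proteins, escort and effector proteins, 36 (46.8%) were bound, against 22.2% of all genes and 37.3% of the Rabs. The bound ones had a median of 44.5 pooled cDNAs, the bound Rabs 146 and all bound genes 61. The 3′UTRs of the 77 genes were long as well, with a median of 2031 nt against 991 nt over all genes. Dennd4a, an exchange factor for Rab10, held 741 and 210 cDNAs and so more than any Rab. It was followed by Dennd1b (221 and 56), an exchange factor for Rab35, and by the GTPase-activating Tbc1d15 (159 and 47) and Tbc1d1 (129 and 40). Rabgap1l held 141 cDNAs in replicate 1, but no 3′UTR site of it was called in replicate 2.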

How the data were processed

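Cytoplasmic RNA bound to Tia1 was sequenced from 2 replicates of LPS-treated splenic B cells. UV dose and RNase amount are stated differently in labels and methods. The authors collapsed PCR duplicates by random barcodes with the iCount pipeline and mapped reads to mm9 (Ensembl 59). Bowtie is named in the submitters' processing notes, with the version not given in the sources used here, nor how reads with several matches were treated. The values are other than plain counts in their sign only: per the file headers and values, the authors deposited whole cDNA counts per crosslinked nucleotide with a minus sign for the minus strand, kept at FDR below 0.05 (100 permutations, neighbourhood of 15 nt). The authors also lifted the pooled list to mm10 (GRCm38). No coordinates were converted here: a replicate site took the position of the same nucleotide in the authors' paired mm9 and mm10 lists, which covered 98.3% and 98.7% of the sites of replicates 1 and 2.

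Sites were placed on GENCODE M21 genes on their strand, coding sequence before 3′UTR, 5′UTR, other exon and intron, with 3′UTRs joined over the protein-coding transcripts of a gene. Intervals were exact (Clopper-Pearson, and conditional for ratios of counts). With 2 samples in 1 group, values are given per replicate and no p-values were computed. Members, classes and lists were chosen with earlier results of these data known. All members were counted by class, and full values were given for the 10 with most pooled 3′UTR cDNAs, for paralogues, for members called in 1 replicate and for those whose replicate 2 share stood apart. The assignment was tested on simulated data with planted sites. The software was scipy 1.17.1, pandas 2.3.3 and numpy 2.4.6 under Python 3.11.15, with pysam 0.24.0, samtools 1.23.1 and matplotlib 3.10.9.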

Additional observations from a re-analysis of the deposited data

Results flagged for a closer look

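The authors' map of all crosslinked positions, without the FDR filter and for the sum of both replicates only, held further cDNAs between the first and last 3′UTR site of the members. Over the 26 members with at least 10 pooled cDNAs, low-FDR sites held a median of 88.5% of the mapped cDNAs in that span, from 51.7% in Rab31 to 100% in Rab4b. For 8 members the share was under 66.7%. The mapped cDNAs without a low-FDR call numbered 62 in Rab30, 34 in Rab35, 15 in Rab2b, 14 in Rab5b, 15 in Rab12, 14 in Rab43, 14 in Rab31 and 7 in Rab1b. No control library was analysed here to set these counts against, so whether they are Tia1 binding below the threshold was not tested.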

How the results depend on the processing

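Of 59 alternative values, 37 kept the direction and stayed within the spread of the replicates or, for counts, within 1.5 times. Another 16 moved beyond these limits without a change of direction. The last 6, all in the class comparison, reversed or lost the direction. The number of bound Rabs was 22 to 29 without a replicate and 14 with at least 10 cDNAs in each. The Rab share of 3′UTR cDNAs was 0.512 to 0.645% without a replicate. The 3′UTR share of Rab cDNAs, 96.6% pooled, was 97.2 to 97.4% without a replicate and 99.6% with sites of at least 5 cDNAs. The excess of U at sites, 14.3 points pooled, was 20.1 points in 15 nt windows and 14.0 to 17.7 without a replicate, and the share of cDNAs in the part next to the stop codon was 61.3 to 64.0%.

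The class comparison moved most. The share bound, secretory minus endocytic, was 7.38 points, and -12.6 to 7.38 without a replicate, -11.7 with sites of at least 5 cDNAs, 25.7 for core members and 21.6 without recycling Rabs. The difference of medians, secretory minus endocytic, was -1.04 cDNAs per 100000, and -1.42 to 1.83 without a replicate, 8.53 for core members, 0.577 for members with a site, and 0 with sites of at least 5 cDNAs, where both medians are 0. The ratio per kb, endocytic over secretory, was 1.90, and 1.92 to 2.21 without a replicate, 2.47 with sites of at least 5 cDNAs, 1.10 for core members, 1.51 without recycling Rabs, 1.54 for members with a site and 2.28 without the leading gene of each class, an alternative chosen after seeing the data. The causes were not tested.

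No paired analysis was possible because there is no other group of samples to pair with, and the classes are compared within each replicate above. Replicate 2 held 165081 low-FDR cDNAs against 639108 in replicate 1, and the part of depth in the missing calls was not tested.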
